A study of Rattus norvegicus with 10 samples.

Results

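The 10 genes described here mark microglia, the resident macrophages of the brain. They were chosen by symbol, as the rows of the authors' deposited table named *Ctss*, *Csf1r*, *C1qa*, *C1qb*, *C1qc*, *Cx3cr1*, *P2ry12*, *Tmem119*, *Aif1* or *Trem2*, and all 10 are among its 12828 genes. RNA was sequenced from the arcuate nucleus (ARC) of the hypothalamus of 10 Wistar rat dams, taken at parturition. Through pregnancy, 5 dams ate a diet with folic acid at 5 times the recommended level (5X-FA) and 5 ate one with methylfolate at 5 times that level (5X-MTHF), and the age of the dams is not given in the labels. The ARC was cut out free hand from frozen slices, so the tissue can hold cells of neighbouring regions.

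Microglia enter the brain early in development and renew themselves there. Their survival depends on the CSF1 receptor, and they sense injury and neuronal signals through surface receptors such as P2RY12, CX3CR1 and TREM2. They also make most of the C1q of the brain, the complement component that tags synapses and debris for removal. In the hypothalamus they are known to respond to diet.

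The study compared the forms of folate, and that comparison was not made here. The columns of values per dam carry only running numbers that match no label, so none could be given to a dam or a diet. The level given for each gene is the authors' own average over all libraries, on the scale of log2 CPM (counts of a gene scaled to the total of each library), with neither an SD nor an n. The values below therefore describe the tissue cut out as ARC, with neighbouring cells it may hold, of both diets together. Whether any microglial gene differed between 5X-FA and 5X-MTHF dams was not tested. Exon lengths were not used here, so a CPM states the share of counts that a gene took, and longer transcripts collect more counts for the same number of molecules. The order of genes below is an order of shares of counts, not of transcript numbers. In bulk tissue, fewer microglia and less RNA per microglial cell cannot be told apart.

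The average CPM of the 10 microglial genes, which were chosen as rows of the filtered table, spanned 5.29 log2 units. *Ctss*, which encodes the lysosomal protease cathepsin S, took the largest share, with an average log2 CPM of 7.78. This equals 220 CPM and placed it at percentile 94.0 of all genes. *Csf1r*, the receptor for the growth factors CSF1 and IL-34, followed with an average log2 CPM of 6.82 (113 CPM, percentile 84.7). These were the 2 members above the upper quartile of all genes, at 72.6 CPM. *Trem2*, a lipid-sensing receptor of phagocytic microglia, was lowest with an average log2 CPM of 2.49 (5.62 CPM, percentile 10.5), and it was the 1 member below the lower quartile, at 12.6 CPM.

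Against the median gene of the table, at 30.7 CPM, 3 of the 10 members lay above and 7 below. The median of the members was 4.41 on the log2 CPM scale, beside 4.94 over all genes. Summed, the 10 genes took 501 CPM. *Ctss* and *Csf1r* made up 66.3% of that sum.

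**Figure D1:**
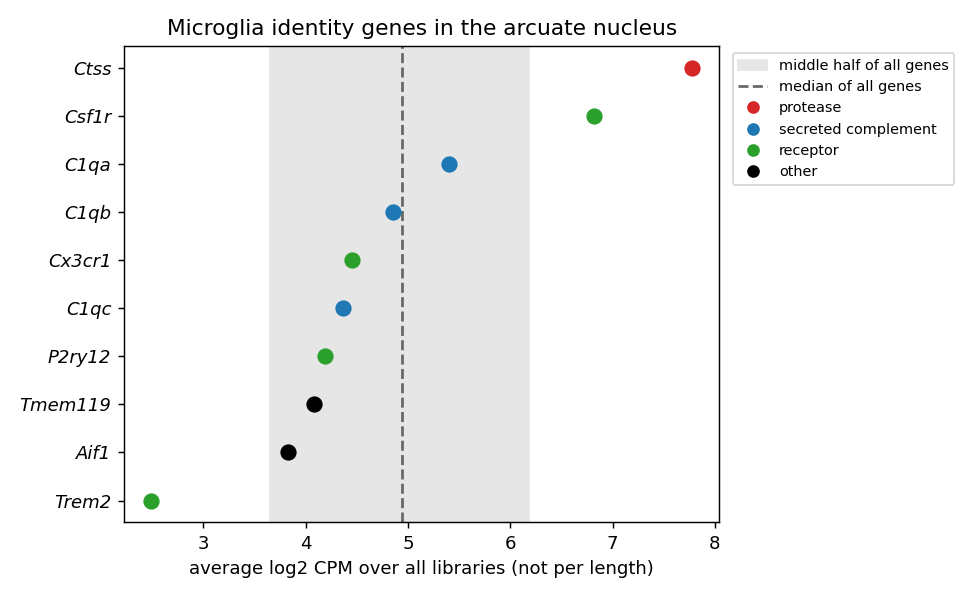
Average log2 CPM of each of the 10 microglial genes (x axis, the authors' mean over all libraries, not divided by length; 1 point per gene, coloured by the kind of protein), with the median of all genes as a dashed line and the range from the lower to the upper quartile of all genes shaded. *Ctss* and *Csf1r* lie to the right of the shaded range and *Trem2* to its left.

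The secreted complement genes *C1qa*, *C1qb* and *C1qc* encode the A, B and C chains that assemble into C1q. Their average log2 CPM values were 5.40, 4.86 and 4.36, or 42.4, 29.0 and 20.6 CPM. The order of these values was A, B, C, and *C1qa* alone lay above the median gene. Together the 3 chains took 91.9 CPM, 18.3% of the sum over the microglial genes.

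The C1q genes lie side by side on chromosome 5 of Rnor_6.0. *C1qb* (ENSRNOG00000012749) runs from 155246447 to 155252003, *C1qc* (ENSRNOG00000012804) from 155255005 to 155258392, and *C1qa* (ENSRNOG00000012807) from 155261250 to 155264143. The cluster spans 17697 bases, with 3001 bases between *C1qb* and *C1qc* and 2857 between *C1qc* and *C1qa*. The next genes of the table on either side encode Eph receptors, which guide axons. *Ephb2*, 41990 bases below the cluster, had 19.0 CPM, and *Epha8*, 31170 bases above it, had 8.52 CPM.

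The promoter sequences of this cluster are shown because its genes are neighbours of 1 complex. RefSeq promoters of build GRCr8 matched 6 of the 10 members by symbol, among them *C1qa* and *C1qb*. The 120 bases before each start of transcription, on the minus strand and read 5′ to 3′, are those of chr5:154419934-154420053 for *C1qa* and chr5:154407828-154407947 for *C1qb*. Capitals mark GGAAGT or its reverse complement, a core recognised by Ets factors, the family of the myeloid regulator PU.1.
*C1qa*: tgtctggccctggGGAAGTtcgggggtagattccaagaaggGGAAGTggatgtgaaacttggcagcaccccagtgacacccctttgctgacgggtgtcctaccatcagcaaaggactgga
*C1qb*: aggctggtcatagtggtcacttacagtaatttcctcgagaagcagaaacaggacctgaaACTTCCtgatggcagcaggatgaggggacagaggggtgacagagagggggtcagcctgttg

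In the 250 bases before the start, searched on both strands, GGAAGT was found in the promoters of *C1qa*, *C1qb* and *Ctss*, that is in 3 of the 6 members with a promoter. It was found in 19.2% of all 33469 promoters. The longer form GAGGAAGT, which contains GGAAGT and is a common form of the PU.1 site, was found in 1 of the 6, that of *Ctss*, and in 2.04% of all promoters. TATAAA, the letters of a TATA box, was likewise found in *Ctss* alone among the 6, and in 12.9% of all promoters. The match in *Ctss* lay on the reverse strand, from 238 to 233 bases before the start, and its letters alone do not make it a TATA box. These matches are of letters only and do not show binding.

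The receptors among the members ran from *Csf1r*, second to *Ctss*, down to *Trem2*, the lowest of the 10. *Csf1r* (ENSRNOG00000018414, chromosome 18 from 56414488 to 56458300 of Rnor_6.0) lies 8106 bases from *Pdgfrb*, the receptor of pericytes, which had 28.1 CPM. *Cx3cr1* (ENSRNOG00000018509, chromosome 8 from 128740756 to 128754514), the receptor for the neuronal chemokine fractalkine, had an average log2 CPM of 4.46 (22.0 CPM, percentile 39.8). *P2ry12* (ENSRNOG00000013902, chromosome 2 from 149441598 to 149444548), the ADP receptor that steers microglial processes towards injury, had 4.18 (18.2 CPM, percentile 34.5).

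*P2ry12* lies within the bounds of *Med12l*, a subunit of the Mediator complex, which had 59.7 CPM, and it was the 1 member that overlapped another gene of the table. How counts in the overlap were shared is not given in the sources used here, so the value of *P2ry12* is less certain than the others. The related receptor gene *P2ry13*, 9491 bases from it and also within *Med12l*, had 5.93 CPM. *Trem2* (ENSRNOG00000013578) lies on chromosome 9 from 14611561 to 14618013.

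The remaining members are a protease, a membrane protein and a calcium-binding protein. *Ctss* (ENSRNOG00000021157) lies on chromosome 2 from 197655786 to 197679458 of Rnor_6.0. *Tmem119* (ENSRNOG00000000700, chromosome 12 from 48598647 to 48605704), whose membrane protein sets microglia apart from other macrophages, had an average log2 CPM of 4.08 (16.9 CPM, percentile 32.7). Its neighbours in the table are *Iscu*, a gene of iron-sulfur cluster assembly, 15749 bases away with 79.8 CPM, and *Selplg*, another gene of myeloid cells, 19450 bases away on the other side with 27.8 CPM. *Aif1* (ENSRNOG00000000853, chromosome 20 from 5161333 to 5166448), which encodes the IBA1 protein that is the usual microglial stain, had 3.83 (14.2 CPM, percentile 27.9). *Aif1* is 6039 bases from *Prrc2a*, an RNA-binding protein gene with 420 CPM.

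Genes of the ligands and partners of these proteins were set beside them. Of 14 such genes, 12 have a row, 5 above and 7 below the median gene, with a median of 4.41 on the log2 CPM scale. For the CSF1 receptor, *Il34* had 34.0 CPM and *Csf1* 23.0 CPM. For CX3CR1, the ligand gene *Cx3cl1*, which neurons express, had 241 CPM (percentile 94.8), while the receptor gene lay at percentile 39.8. *Tyrobp*, the signalling adaptor of TREM2, had 6.41 CPM and stood near *Trem2*, at percentiles 12.3 and 10.5.

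The lipoprotein genes *Apoe* and *Clu*, whose products bind TREM2 and come largely from astrocytes, had 2267 and 895 CPM. *Cst3*, the gene of the cathepsin inhibitor cystatin C, had 1304 CPM, within the top percentile of the table at 99.7. In the classical complement pathway the C1q genes were accompanied by the protease genes *C1r* at 19.6 CPM, *C1s* at 14.7 and *C2* at 11.4. The central component *C3* had 19.3 CPM. *C4a* and *C4b* were not analysed here.

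**Figure D2:**
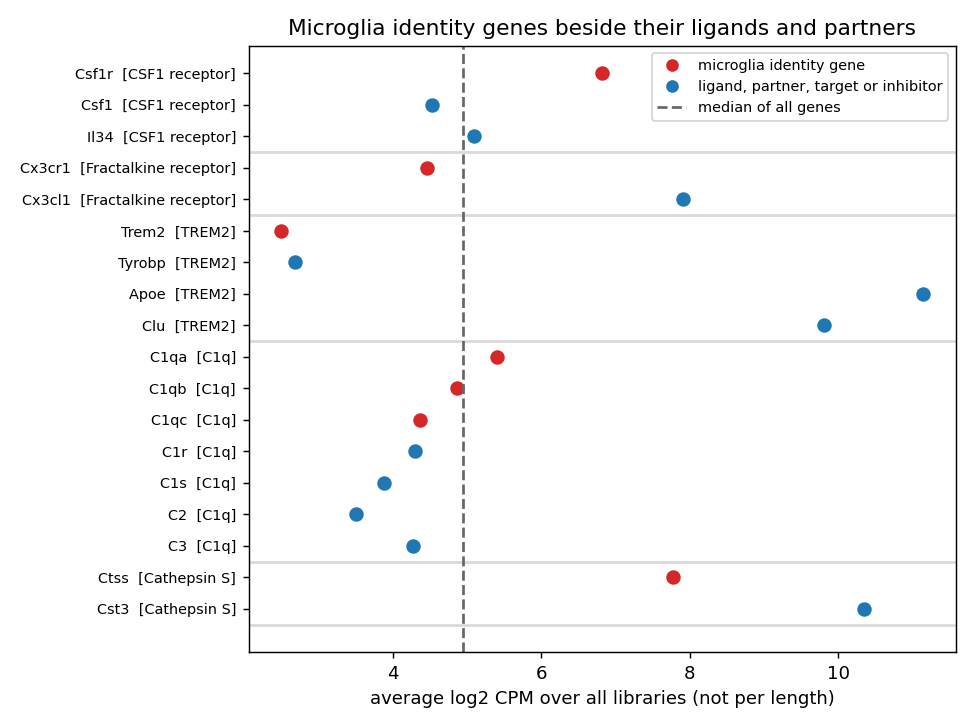
Average log2 CPM (x axis, the authors' mean over all libraries, not divided by length) of microglial genes in red and of their ligands, partners, downstream proteins or inhibitors in blue, 1 point per gene, grouped by the system in brackets; the dashed line is the median of all genes. *Apoe*, *Cst3* and *Clu* lie furthest to the right, and *Trem2* and *Tyrobp* furthest to the left.

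Other genes of microglia and myeloid cells had a lower median than the 10 members, which were chosen among genes with a row. Of 40 listed genes 30 have a row, 6 above and 24 below the median gene. Their median was 3.41 on the log2 CPM scale (median percentile 21.4), beside 4.41 for the members. Among the highest were *Lgmn*, the lysosomal protease legumain, with 97.2 CPM, and *Tgfbr1*, a receptor of the TGF-beta signal that microglia need, with 48.7. Among transcription factor genes of microglia, *Sall1* had 43.3 CPM, *Irf8* 11.8, and *Spi1*, which encodes PU.1, 4.25.

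Markers of macrophages at the borders of the brain were listed as well. Of 10 such genes 4 have a row, all of them below the median gene. The 10 members were chosen among genes with a row, so the numbers with a row cannot be compared. The median of the border macrophage genes was 3.33 on the log2 CPM scale. It was 4.41 for the members and 3.41 for the other microglia and myeloid genes, close to that of the border macrophage genes. The summed CPM of the 4 border macrophage genes was 43.9. That of the 10 members was 501, of which *Ctss* and *Csf1r* made up 66.3%. The 4 border macrophage genes are *Cd74* with 18.6 CPM, *Mrc1* with 11.8, *F13a1* with 8.60 and *Pf4* with 4.81. *Csf1r*, *Aif1*, *Cx3cr1* and the C1q genes are also expressed by such macrophages, and the part that border macrophages have in their values was not tested.

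The members were also set beside markers of the other cells of the tissue. All 10 astrocyte and all 10 oligodendrocyte genes lay above the median gene, with medians of 9.29 and 8.03 on the log2 CPM scale, and 9 of 10 neuronal genes did so, with a median of 8.98. The 9 endothelial genes with a row had a median of 4.45, close to the 4.41 of the microglial genes. Of 13 ARC marker genes 11 have a row, 2 above and 9 below the median gene, with a median of 3.66. They ran from *Cartpt* with 65.0 CPM down to *Kiss1* with 1.06, and *Npy* has no row. Genes of striatal neurons had 10 of 10 with a row, 7 above and 3 below the median gene, and a median of 5.67. Genes of cortical and hippocampal neurons had 9 of 10, 5 above and 4 below, and a median of 5.29. The part that neighbouring regions have in the values of the members was not tested. Red blood cell genes were detected too, with *Hba-a2* and *Hbb* among those with the highest shares, and the part of blood left in the vessels in any value of the members was not tested.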

How the data were processed

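RNA from the ARC of 10 dams was poly-A selected and sequenced as read pairs. Per the labels' processing notes and the study's methods, reads were trimmed with Trim Galore 0.5.0, aligned with STAR 2.6.0c to Rnor_6.0 and assigned to Ensembl gene models by HTSeq 0.6.1p2, and genes with few reads were dropped. The authors deposited 1 table of 12828 genes. From it the average log2 CPM over all libraries was used, as deposited by the authors; whether a prior count was added is not given in the sources used here. Turned back from log2 CPM to CPM, the column sums to 1002152 over all genes. This sum lies 0.215% above the total that CPM values should give. A further 10 per-sample columns match no sample label and were used in no step. Another 4 columns hold the authors' own comparison of the diets (fold change, F, p-value, FDR) and were not used. The planned tests of the diets, with alternatives to them, could therefore not be run, and the depth and spread per dam are unknown from the values used.

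Ranks and percentiles were taken over all genes (Python 3.11.15, pandas 2.3.3, numpy 2.4.6, matplotlib 3.10.9), and the ranking code was tested on made-up values of known order. A further 13 gene lists were written by hand and matched by symbol. Members and lists were chosen with earlier results of these data known. All members are named, and of the myeloid, ligand, activation and interferon lists those of the 3 genes with the highest averages that are reported here (some genes are not); the planned naming of 3 genes from each remaining list was not carried out, since no result turns on those genes. The transcription factor, neighbour, ligand, complement and remaining genes named were chosen after their values were seen. Genes without a row may have failed the filter on low counts or bear another symbol, and were not analysed here. Gene positions are those of the deposited table (Rnor_6.0), and promoter sequences are from RefSeq (GRCr8).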

Additional observations from a re-analysis of the deposited data

How the results depend on the processing

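The median of the members, 4.41 on the log2 CPM scale, became 4.83 as a mean, since *Ctss* and *Csf1r* lie far above the rest. Their median percentile was 38.8 among all genes, 37.2 among protein-coding genes and 47.0 as a mean. Summed over the lists, with a gene in several lists or several rows counted each time, 76 entries lay above the median of all genes and 74 above that of protein-coding genes. No paired analysis was possible because the columns of values per dam carry no label and were not used. For the same reason the fits of the diets, another test, pseudocount or filter, and the fits without 1 dam were not run. Levels per length are not given, as transcript and coding lengths were not at hand and the deposited values per dam were left unused. The deposited table is titled as FPKM, a value per length. Its columns of values per dam were not used, not even as an average over all dams, which needs no label. The precision of each average is not given. The average alone holds neither the depth nor the spread over dams, and no spread was computed from the unused columns. The share of a low gene such as *Trem2* rests on the fewest counts.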

Other observations

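Genes raised in phagocytic or disease-associated microglia were uneven. Of 22 listed genes 18 have a row, 11 above and 7 below the median gene, with a median of 5.78 on the log2 CPM scale. The highest were *Apoe* with 2267 CPM, the cathepsin gene *Ctsb* with 489 and *B2m*, the light chain of MHC class I, with 392, all of which other brain cells express too. Lower were *Spp1*, which encodes osteopontin, with 13.7 CPM, *Gpnmb*, a glycoprotein of lipid-laden macrophages, with 7.11, and *Lgals3*, a galectin of activated macrophages, with 3.19.

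Of 24 cytokine, chemokine and interferon-induced genes, 9 have a row, 2 above and 7 below the median gene, with a median of 3.10 on the log2 CPM scale. Among the highest were the interferon signal transducer *Stat2*, with 36.7 CPM, and the interferon-induced GTPase gene *Mx2*, with 21.2. The other 15, among them *Il1b*, *Tnf* and *Il6*, were not analysed here.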
